A study of Homo sapiens with 4 samples.

Results

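MTF1, the transcription factor that senses zinc, and 9 zinc transporters (SLC30A1, SLC30A4, SLC30A5, SLC30A6, SLC30A7, SLC39A1, SLC39A8, SLC39A10 and SLC39A14) were followed between naïve NB4 cells and NB4 cells resistant to arsenic trioxide (ATO). Every probe that the array names for one of these 10 genes was taken, whatever its signal, which gave 20 of the 41000 probes of the array. NB4 is an established human cell line of acute promyelocytic leukemia, grown in RPMI medium with 10% fetal bovine serum. The resistant cells were derived from it as 1 clone, written NB4-VM-AsR1 in the labels and NB4-EV-AsR1 in the methods and taken here, as an assumption, for the same clone, and they were kept off ATO for a week before harvest. Each line was kept in 2 independent flasks, and Cy3-labeled RNA of every flask went onto a 1-colour Agilent whole genome array of its own. The labels and methods give no other agent for these flasks, and what is compared is the resting state of a single resistant clone and of its parental line.

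Zinc enters the cytosol through the ZIP proteins of the SLC39 family and leaves it through the ZnT proteins of the SLC30 family, which move zinc out of the cell or into vesicles and the secretory pathway. When free zinc rises, MTF1 binds metal response elements in DNA and switches on the metallothioneins, small cysteine-rich proteins that hold zinc, cadmium or copper, and the exporter SLC30A1. Arsenite is itself known to induce metallothioneins through MTF1.

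Levels are given as the log2 signal minus the 75th percentile of the array, so that 0 is the signal at that percentile, and a difference of 1 is 2-fold. Such levels were compared between flasks for 1 probe at a time and not between probes. In bulk RNA, fewer cells carrying a transcript and less of it per cell cannot be told apart. Probe positions below are on hg19, the build named in the array files, and no annotation of exons or UTRs on that build was used.

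Probes of the same gene did not always give the same reading, so the probes of SLC30A1, SLC30A5 and MTF1 are shown first. Whether the stretch of transcript read had a part in this was not tested. For SLC30A1 and SLC30A5, 2 probes lay in the same gene at a distance from each other, and the third SLC30A5 probe was designed on a transcript variant. Sequences run 5′ to 3′ on the strand of the transcript. Whole probes are printed for 3 of them and the first 30 bases for the other 4.
SLC30A1 A_23_P23815 (chr1:211748842-211748901): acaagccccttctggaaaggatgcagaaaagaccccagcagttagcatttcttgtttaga
SLC30A1 A_24_P937095 (chr1:211745445-211745504), first 30 bases: tttgatgtagctctaccgatactatgtggt
SLC30A5 A_23_P218988 (chr5:68425352-68425411): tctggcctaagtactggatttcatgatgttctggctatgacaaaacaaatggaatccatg
SLC30A5 A_23_P160103 (chr5:68419060-68419119): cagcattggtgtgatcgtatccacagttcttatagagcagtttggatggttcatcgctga
SLC30A5 A_24_P257585 (chr5:68400369-68400428), first 30 bases: ttattatctttctgtattttatttaaaatt
MTF1 A_23_P74241 (chr1:38280638-38280697), first 30 bases: aatcctcacctttcagacgtattttcttta
MTF1 A_24_P932579 (chr1:38276689-38276745), first 30 bases: ttatatttgtaatcacatccattgtcctta

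MTF1 acts through the metal response element, whose core was searched as TGCACNC and TGCGCNC on both strands, from 250 bases before to 50 bases after each start in the RefSeq promoter table of GRCh38.p14. The table held 13 such windows for 9 of the 10 genes, all but SLC39A14, and 6 of the 13 windows, each of a different gene, had at least 1 match. Of all 35116 windows of this length, 29.6% had a match, so a single match is a frequent event. SLC30A1, a target of MTF1, was alone among the 9 genes in the table with 2 matches in a window, at -49 and 24 bases from the start and both on the strand opposite to the gene, which 8.6% of all windows reached. The windows of MTF1, SLC30A5 and SLC30A7 held no match. For scale, the window of the metallothionein MT2A held 8 matches and that of MT1X 4, where 0.601% of all windows had 4 or more. Of all windows, 724 held matches that overlap each other. Each match is shown within 30 bases on the strand of the gene, with the 7 bases of the core in capitals (GAGTGCA and the like being a core read from the opposite strand).
SLC30A1 chr1:211579192-211579221 (-): acgggggttccGAGTGCAaagcaaagtttt
SLC30A1 chr1:211579119-211579148 (-): gagaccgggccGAGTGCAgctgccgtggcc
SLC30A4 chr15:45522861-45522890 (-): cgccccagcccTGCGCGCcaggcctgcgtg
SLC30A6 chr2:32165725-32165754 (+): cttccgccacgGAGTGCAgggacagccggg
SLC39A1 chr1:153963755-153963784 (-): tcctccacagaTGCGCCCcagggccccagc
SLC39A8 chr4:102345583-102345612 (-): gccggcggtccTGCGCCCcggcgtggacgc
SLC39A10 chr2:195657246-195657275 (+): agcggagaggagaTGCACACggcactcgag

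**Figure D1:**
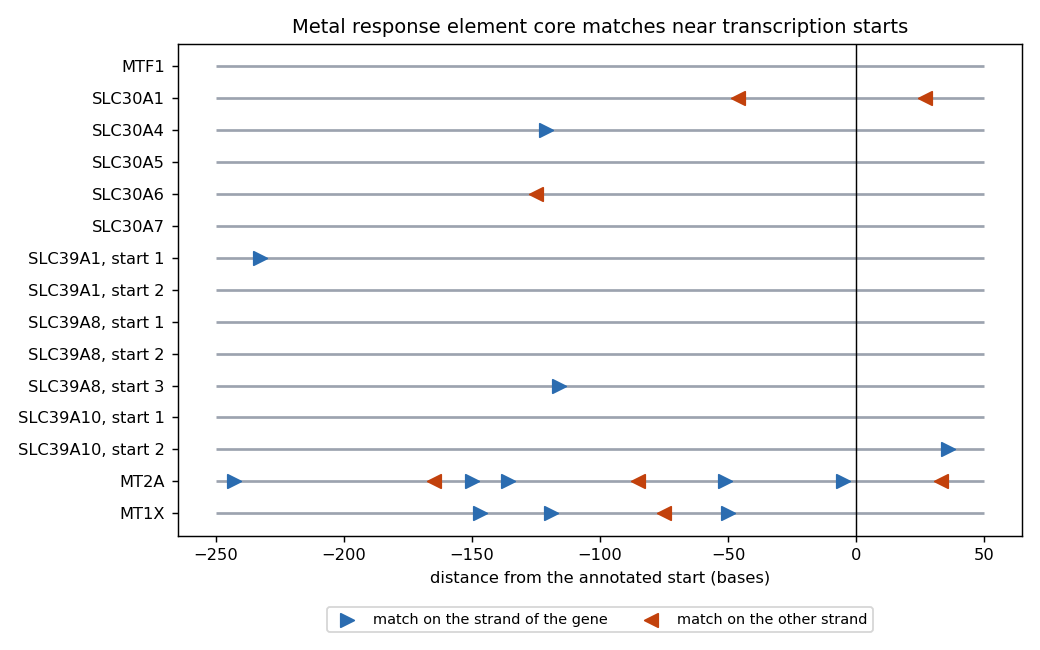
Positions of metal response element cores in the RefSeq promoter windows (GRCh38.p14) of the zinc genes, with MT2A and MT1X below them. The horizontal axis is the distance from the annotated start in bases, each grey line is 1 window from 250 bases before to 50 after the start, and triangles are matches pointing along or against the gene. SLC30A1 had 2 matches close to its start, other zinc genes had 1 or 0, MT2A had 8 and MT1X 4.

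None of the 10 genes passed the test. The test took only probes that both arrays of a line, or of each line, read well above background, which held for 17 of the 20 probes and left each gene with at least 1. A call required an adjusted p below 0.05 in limma (Benjamini-Hochberg, over the 28221 probes that entered the test) and a change of at least 2-fold. Of the 17 probes 0 were called, against 1487 of all probes tested, or 5.27%. The methods' t-test, with Benjamini-Hochberg adjustment, called 0 probes on the whole array, so its 0 here says nothing about these genes. Of the 17, 0 had an unadjusted p below 0.05 in it, where 4138 of the 28221 did. In limma 1 of the 17, a probe of SLC30A5, had an unadjusted p below 0.05, a level that 19.1% of all probes reached. The lowest adjusted p among them was 0.252. With 2 flasks per line an exact two-sided permutation test cannot go below p = 0.333 for a single probe.

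The fitted log2 change was below 0 for 14 of the 17 probes and above 0 for 3, with a median of -0.20 against -0.02 over all probes tested. This direction did not hold under every setting. With the normexp background correction 8 of the 17 lay below 0 and the median was 0.07, against 0.13 over all probes tested. Without the first naïve flask 10 of the 17 lay below 0. Both resistant flasks lay below both naïve flasks for 8 of the 17 probes, which 28.2% of all probes did, and above them for 1, which 24.6% did. For the other 8 the lines overlapped. Of the 17, 2 had passed the filter through the naïve line alone, so the count of lower probes is a description and not a test. The median size of the change was 0.27 for these probes and 0.34 for all probes tested. For 5 probes, those read brightest for MTF1, SLC30A1 and SLC39A14 and both of SLC30A7, the whole 95% interval of the change lay within 2-fold in either direction. For the other 12 a change of 2-fold or more in at least 1 direction was within the interval. In limma the variance of each probe is drawn toward that of all probes tested. These intervals therefore do not rest on the probe's own flasks alone, and intervals from those flasks alone were not computed.

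**Figure D2:**
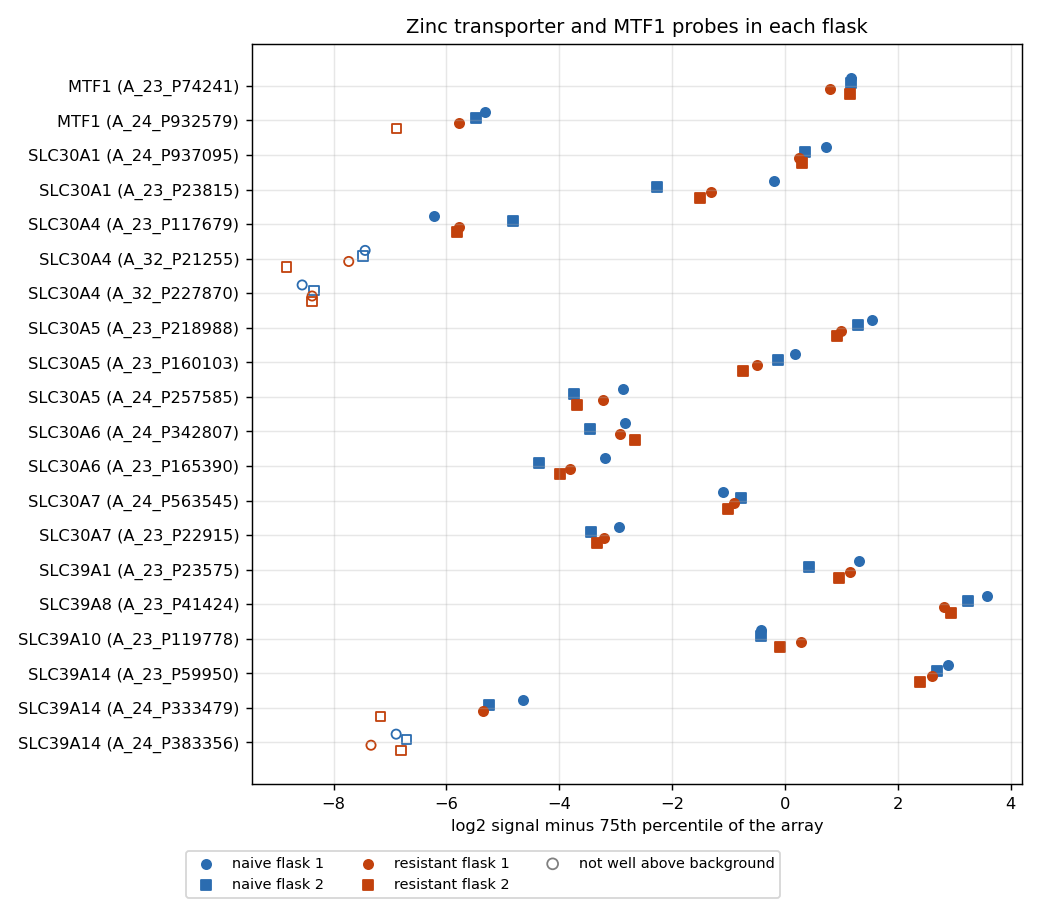
Level of each of the 20 probes in each flask, as log2 signal minus the 75th percentile of the array (horizontal axis), with naïve flasks in blue, resistant flasks in orange, and open symbols where the probe was not well above background. The lines overlapped or lay close together for most probes, and the SLC30A1 probe A_23_P23815 was at -0.20 in one naïve flask and -2.26 in the other.

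MTF1 transcript was present in every flask. Its brightest probe, A_23_P74241, stood at 1.18 and 1.18 in the naïve flasks and at 0.81 and 1.16 in the resistant flasks. The resistant flasks were both lower, the second by very little. The mean went from 1.18 ± 0.00 (SD, n = 2) to 0.98 ± 0.25 (SD, n = 2), a log2 change of -0.20 (95% interval -0.81 to 0.41, adjusted p = 0.710 by limma), or 0.873-fold with an interval of 0.572 to 1.33. A change of 2-fold or more lay outside the interval of this probe. The fitted change was -0.02 without the first resistant flask, -0.37 without the second, -0.06 under scale normalization and -0.57 as the mean over both MTF1 probes. The dim probe A_24_P932579, which aligns elsewhere in the same transcript, read -5.31 and -5.47 in naïve and -5.78 and -6.88 in resistant cells and was not well above background in the second resistant flask. Its log2 change of -0.94 (interval -1.96 to 0.08, adjusted p = 0.297) has an interval that reaches lower than that of the bright probe.

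Over the 4 arrays, the gene whose pattern came closest to that of the bright MTF1 probe was the mitochondrial carrier SLC25A2. It was near the lower end of detection, at -5.62 and -5.59 in naïve and -6.02 and -5.62 in resistant flasks. The root mean square difference between its centred log2 values and those of MTF1 was 0.0221. PHF10, a subunit of a chromatin remodelling complex, followed at 0.0259 and NOP10, a small nucleolar RNA protein, at 0.0301. With 4 arrays such likeness is common, and 422 of 19433 candidate probes lay within 0.1.

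SLC30A1, the exporter at the plasma membrane, gave 2 readings that agreed in sign and not in spread. Probe A_24_P937095, the brighter, stood at 0.73 and 0.36 in naïve and at 0.25 and 0.30 in resistant flasks. Both resistant flasks were lower, but the naïve flasks differed by 0.37 from each other and the change of -0.27 (interval -0.89 to 0.34, adjusted p = 0.596) was smaller than that. Probe A_23_P23815 stood at -0.20 in the first naïve flask, -2.26 in the second, and -1.31 and -1.50 in the resistant flasks. The resistant flasks thus lay between the naïve flasks, which were 2.06 apart, a gap that 1.57% of all probes tested reached.

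The change read by A_23_P23815 was -0.17 (interval -1.87 to 1.53, adjusted p = 0.918), which allows anything from a drop to 0.273-fold to a rise to 2.88-fold. It followed the naïve flask chosen. Without the second naïve flask the log2 change was -1.21 (adjusted p = 0.0111), which would be a call, and without the first it was 0.86 (adjusted p = 0.0398), under the 2-fold limit. The brighter SLC30A1 probe kept its sign in these fits, at -0.46 and -0.09. In processed signal, A_23_P23815 read 940 and 187 in the naïve flasks and 424 and 297 in the resistant flasks, so the spot was not dim in any flask. Why the 2 probes of SLC30A1 differed in the naïve flasks was not tested.

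SLC30A4, which loads zinc into endosomal vesicles, was near the lower end of detection. A_23_P117679 read -6.22 and -4.82 in naïve flasks and -5.78 and -5.81 in resistant flasks, again with the resistant flasks between the naïve ones. The change was -0.27 (interval -1.49 to 0.95, adjusted p = 0.806), and a difference between naïve flasks as large as its 1.40 was found for 5.73% of probes. Its change was -0.98 without the first naïve flask (adjusted p = 0.0223, under 2-fold) and 0.43 without the second. The other SLC30A4 probes, A_32_P21255 and A_32_P227870, were not well above background on any array.

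SLC30A5 and SLC30A6 form a heterodimer that carries zinc into the early secretory pathway, where it reaches enzymes such as alkaline phosphatase. SLC30A5 had the probe with the lowest p among the 10 genes. A_23_P218988 stood at 1.55 and 1.30 in naïve and at 1.00 and 0.93 in resistant cells, a change of -0.46 (interval -1.04 to 0.12, adjusted p = 0.360). A_23_P160103 stood at 0.17 and -0.13 in naïve and at -0.49 and -0.74 in resistant cells. On both probes the resistant flasks lay below the naïve flasks without overlap. The change on A_23_P160103 was -0.64 (interval -1.26 to -0.02, unadjusted p = 0.0459, adjusted p = 0.252 by limma), or 0.642-fold, and did not pass the test.

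The third SLC30A5 probe, A_24_P257585, was designed on transcript variant 2 and holds 18.3% G and C, the lowest share among the probes of these genes with a sequence. It read -2.87 and -3.73 in naïve and -3.23 and -3.69 in resistant flasks, with the lines overlapping and a change of -0.16 (interval -1.10 to 0.78, adjusted p = 0.857). For the partner SLC30A6, A_24_P342807 read -2.84 and -3.45 in naïve and -2.92 and -2.65 in resistant flasks, a change of 0.36 (interval -0.40 to 1.11, adjusted p = 0.569). The second SLC30A6 probe, A_23_P165390, gave the opposite sign, -0.12 (interval -1.18 to 0.94, adjusted p = 0.905), from -3.20 and -4.35 to -3.81 and -3.98. No direction can be given for SLC30A6.

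SLC30A7, a ZnT of the early secretory pathway that works apart from that heterodimer, was the most level of the 10 genes in its fitted change. A_24_P563545 read -1.10 and -0.78 in naïve flasks and -0.90 and -1.0 in resistant flasks. The change of -0.01 (interval -0.62 to 0.59, adjusted p = 0.984) turned to between 0.011 and 0.079 under quantile, scale and median normalization, so it has no direction. The dimmer A_23_P22915 changed by -0.07 (interval -0.75 to 0.60, adjusted p = 0.911). A 2-fold change lay outside the interval of both SLC30A7 probes.

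SLC39A8 imports zinc, manganese and cadmium and was well above background on every array. Its probe A_23_P41424 (chr4:103182951-103183010, minus strand) read 3.59 and 3.25 in naïve and 2.81 and 2.94 in resistant flasks. Both resistant flasks were lower and the lines did not overlap. The mean went from 3.42 ± 0.24 (SD, n = 2) to 2.88 ± 0.09 (SD, n = 2), a change of -0.54 (interval -1.15 to 0.07, adjusted p = 0.311), or 0.687-fold, which did not pass the test. Whether the change of SLC39A8 or that of SLC39A10 was the larger in size depended on the normalization (0.62 for SLC39A10 and -0.37 for SLC39A8 under scale normalization).

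SLC39A10, an importer at the plasma membrane, was alone among the 10 genes in having both resistant flasks above both naïve flasks. Of the 13 probes tested for the other SLC39 genes of the array 6 did so too, where 24.6% of all probes did. A_23_P119778 (chr2:196601344-196601403) read -0.42 and -0.42 in naïve flasks and 0.28 and -0.09 in resistant flasks. The change was 0.52 (interval -0.10 to 1.14, adjusted p = 0.332), or 1.43-fold, and the resistant flasks differed by 0.37 from each other. SLC39A1, an importer found in most tissues, read 1.31 and 0.43 in naïve and 1.15 and 0.96 in resistant flasks on A_23_P23575 (chr1:153932192-153932251, minus strand). The resistant flasks again lay between the naïve flasks, 0.88 apart, and the change of 0.18 (interval -0.71 to 1.07, adjusted p = 0.827) became -0.26 without the second naïve flask.

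SLC39A14 carries zinc, manganese and iron that is not bound to transferrin. Its brightest probe, A_23_P59950, read 2.89 and 2.70 in naïve and 2.60 and 2.39 in resistant flasks. The resistant flasks were lower without overlap, by 0.30 in the means (change -0.30, interval -0.89 to 0.29, adjusted p = 0.538). The dim A_24_P333479 read -4.64 and -5.24 in naïve and -5.35 and -7.17 in resistant flasks and was not well above background in the second resistant flask. Its change of -1.32 (interval -2.90 to 0.27, adjusted p = 0.337) was the one fitted change of 2-fold or more among the 17 probes, and it was -0.41 without the second resistant flask. Without the first, the probe has no resistant reading well above background. The third SLC39A14 probe, A_24_P383356, was not well above background on any array.

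**Figure D3:**
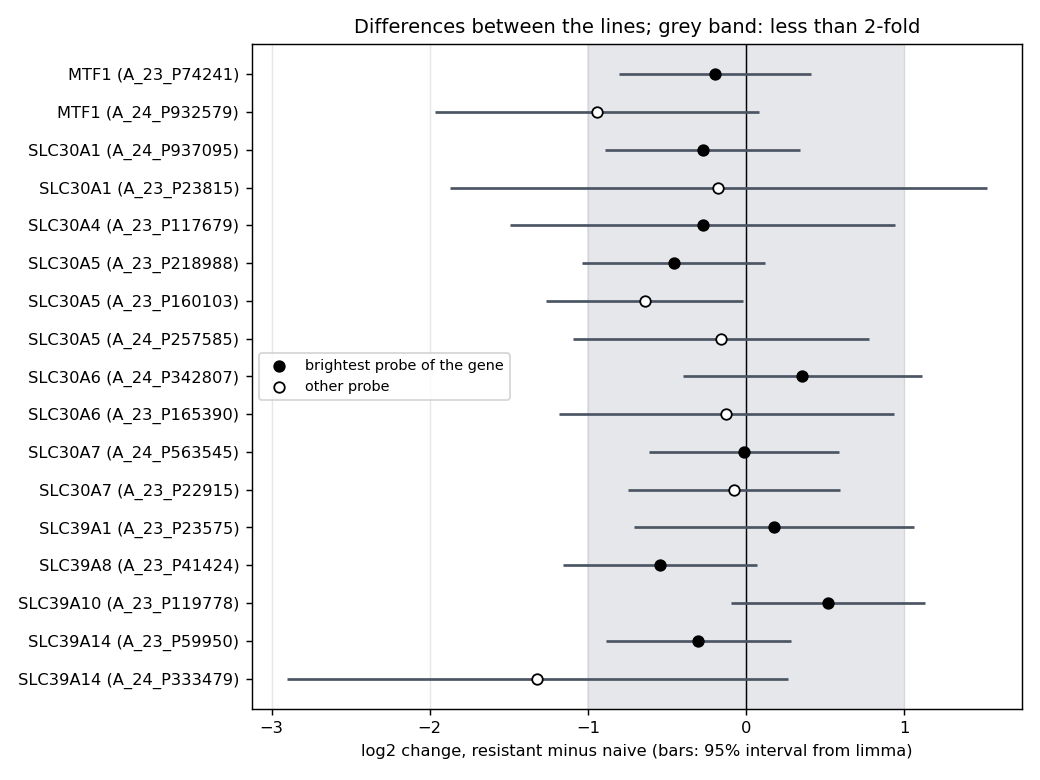
Fitted log2 change, resistant minus naïve, of the 17 probes tested (points), with the 95% interval from limma (bars), filled for the brightest probe of a gene and open for others. The grey band marks changes of less than 2-fold. All intervals but that of SLC30A5 A_23_P160103 include 0, and the widest belong to SLC30A1 A_23_P23815 and SLC39A14 A_24_P333479.

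The gap between flasks was larger in the naïve pair for some probes of these genes and in the resistant pair for others. The limma intervals do not rest on these gaps alone, since they also draw on the variance of all probes tested. Over the 17 probes the SD of the log2 difference between flasks was 0.71 for the naïve pair and 0.52 for the resistant pair, against 0.71 and 0.37 over all probes tested. Of the 17 probes 13 read higher in the first naïve flask than in the second, where 13008 of the 28221 probes tested did. The median size of the naïve difference was 0.37 for the 17 probes and 0.39 for all probes tested. The largest resistant difference, 1.82, was that of SLC39A14 A_24_P333479, followed by 1.1 for MTF1 A_24_P932579, the 2 probes that dropped to background in the second resistant flask. Metallothioneins differed between the naïve flasks as well, by a median of 1.32 in size against 0.39 for all probes tested. Of their 17 probes tested 14 read higher in the first naïve flask, as SLC30A1 A_23_P23815 did. The brighter SLC30A1 probe, A_24_P937095, did so by 0.37 only, a gap that 52% of all probes tested reached. The part of this difference in the comparison of the lines was not tested.

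**Figure D4:**
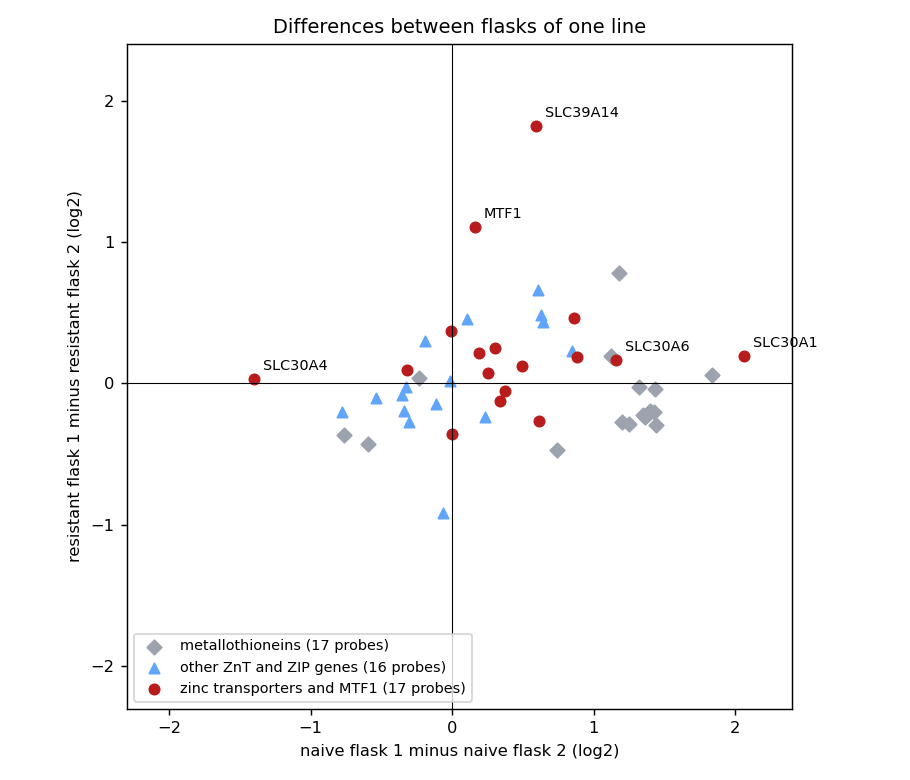
Difference between the naïve flasks (horizontal axis) and between the resistant flasks (vertical axis) in log2 units, for each probe tested of the zinc genes, the other ZnT and ZIP genes and the metallothioneins. SLC30A1 A_23_P23815 lay at 2.06 on the naïve axis together with most metallothioneins between 0.74 and 1.84, and SLC39A14 A_24_P333479 lay at 1.82 on the resistant axis.

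The 5 other SLC30 and 10 other SLC39 genes of the array had 21 probes, of which 16 were tested and 0 were called by limma, where 5.27% of all probes were called, and 1 had an unadjusted p below 0.05, where 19.1% of all probes did. That one belonged to SLC39A13, an importer of the secretory pathway, which is named here after its values were seen. It read 1.26 and 1.61 in naïve and 2.14 and 2.34 in resistant flasks, a change of 0.81 (adjusted p = 0.168). Taking the array's ZnT genes together, 11 of 13 probes tested had a fitted change below 0, with a median of -0.17. Of the ZIP probes 11 of 18 were above 0, with a median of 0.25. This split into importers and exporters was made after the values were seen. Under the normexp background correction, where the median of all probes tested was 0.13, the ZnT count turned to 5 below and 8 above 0. Without the first naïve flask it was 7 and 6.

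The metallothioneins are the best known targets of MTF1, and their fitted changes all pointed down. Of 19 probes for 12 genes, 17 were tested, all with a fitted change below 0 and a median of -1.19, and 13 had both resistant flasks below both naïve flasks, which 28.2% of all probes did. Only MT1M was called, with 5.27% of all probes called. It read -0.94 and -2.12 in naïve flasks, was not well above background in either resistant flask, and was at least 30.8-fold lower (adjusted p = 0.00256 by limma), a call that normexp and the methods' t-test did not give. MT2A, on 3 probes, changed by -1.52 to -1.56 (adjusted p from 0.161 to 0.187), and MT1X by -1.36, -1.19 and -0.31 (adjusted p from 0.194 to 0.669). The smallest change was that of MT1F, at -0.11 (adjusted p = 0.943).

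The metallothionein values hung on the naïve flasks. On its brightest probe MT2A stood at 5.57 in the first and 4.20 in the second, against 3.21 and 3.45 in the resistant flasks. Without the first naïve flask the median over the 17 metallothionein probes was -0.61, against -0.06 over all probes tested. Without the second it was -1.88, against -0.01. Metallothionein genes are close in sequence, so that their probes may read each other's transcripts.

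Of the 4 targets of MTF1 outside the metallothioneins none was called by limma, and 1, GCLC, had an unadjusted p below 0.05, both counts too small to set against the 5.27% and 19.1% of all probes. GCLC, the catalytic subunit of the enzyme that limits glutathione synthesis, stood at 0.84 and 0.86 in naïve and 1.82 and 2.01 in resistant cells. Its change was 1.06 (interval 0.50 to 1.63, adjusted p = 0.0680). The growth factor PGF changed by -0.47 (adjusted p = 0.457) and the iron hormone HAMP by -1.0 (adjusted p = 0.325), the latter not well above background in the second resistant flask. SELENOH, a nuclear selenoprotein listed on the array as C11orf31, changed by -0.03 (adjusted p = 0.964) and was saturated on 3 arrays.

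Among 18 genes for the transport of iron, copper and magnesium, 31 of 33 probes were tested and 1 was called, against 5.27% of all probes. It was that of SLC41A1, a magnesium transporter of the plasma membrane. It read -2.44 and -1.24 in naïve flasks, was not well above background in either resistant flask, and was at least 24.8-fold lower (adjusted p = 0.00358). A second SLC41A1 probe was not well above background on any array. The fitted change was below 0 for 22 of the 31 probes and above it for 9.

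**Figure D5:**
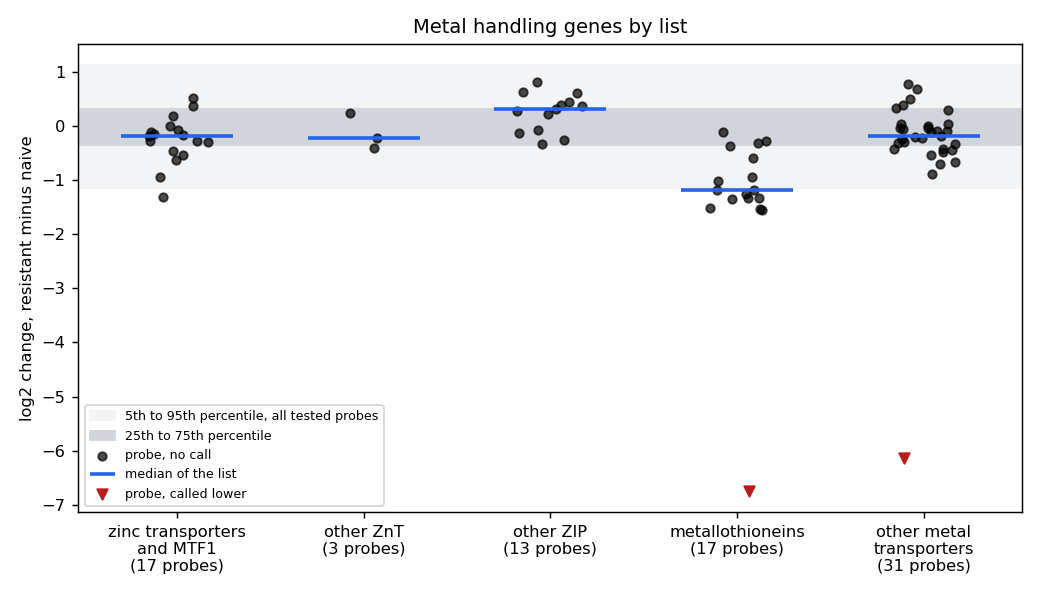
Fitted log2 change, resistant minus naïve, of every probe tested in 5 lists of metal handling genes, with the median of each list in blue and called probes in red. Grey bands give the percentiles of all probes tested. The zinc transporters and MTF1 centre on -0.20, inside the middle band, while the metallothioneins centre on -1.19 and their called probe is MT1M.

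The arrays were alike in signal, with 27922 to 28244 probes well above background and 457 to 565 saturated, none of them among the zinc genes. All 4 lay on 1 slide with the naïve flasks in the first positions, so that position and line cannot be told apart. Across probes, whose values do not replicate one another, Pearson's r was 0.976 for the naïve pair and 0.994 for the resistant pair, with 0.947 to 0.951 from line to line. Of 9 probes for 8 promyelocyte markers, 8 were well above background on all arrays. The exception was ELANE, which was near background in the naïve line and not above it in the second naïve flask. AZU1 and ELANE were called higher in resistant cells, and ELANE had passed the filter through the resistant line alone. The fitted changes of the 9 probes lay between -0.62 (CEBPE) and 2.49 (ELANE), 3 of them below 0. MPO was saturated on 4 arrays and CTSG on 2, so their fitted changes are limited by that. Of 21 probes for 15 markers of other cell types (B and T cell, erythroid, stroma, epithelium), 11 were tested, and 4 were called, all lower in the resistant line: CD3D, at least 169-fold, and the 3 probes of KRT18. Their part in the values of the zinc genes was not tested.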

How the data were processed

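Gene expression was measured in 2 flasks of naïve NB4 cells and 2 of the ATO resistant clone, grouped by the labels, whose replicates are independent flasks per the methods. The authors deposited scanner output, made with Agilent Feature Extraction 10.5.1.1 (submitters' processing notes and file headers), in which the processed signal is a background-subtracted intensity. The mean signal and the median local background, also intensity columns deposited by the authors, were used for normexp. A log2 table that the authors deposited, made in GeneSpring GX by a shift to each array's 75th percentile, was used as an alternative.

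In R 4.3.3, control spots and spots flagged as outliers were left out, repeat spots were averaged, and from log2 of the processed signal the array's 75th percentile was subtracted. These values lay within 0.01 of the deposited table, once centred, for at least 40839 of 40937 probes per array. Arrays have no read depth, and their number limits the precision. A low level can hold a surrogate in place of a spot at background, which compresses changes of dim probes. The comparison used limma 3.58.1 (lmFit, eBayes) with Benjamini-Hochberg adjustment over the probes tested, and intervals and adjusted p-values in the text are from that fit. For a probe that neither array of a line read well above background, the fold is a lower bound: the dim line takes, per array, the lowest signal that passed, or the own signal of the probe where that is higher.

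The probe with the highest mean stands for a gene. The rule for named genes took every probe of the 10 genes, MT2A, MT1X and the metallothioneins with the lowest and highest change, the other MTF1 targets, called members of the other lists, and the 3 genes closest to MTF1 in pattern. Genes, lists and settings were chosen with earlier results of these data known. The alternatives were normexp with an offset of 50, also with local backgrounds over 100 reset, quantile, scale and median normalization, other filters on dim probes, an intensity trend, the log2 table that was deposited, the t-test of the methods, no fold threshold, replicate numbers as a block, leaving out a flask, and a gene's mean over its probes.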

Additional observations from a re-analysis of the deposited data

How the results depend on the processing

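For the 10 genes, the fitted change can move under alternatives that gave 107 values, of which 99 kept their sign and 8 did not. Under the other filters on dim probes, the intensity trend, the methods' t-test and the replicate block the change is the same by construction. No brightest probe gained a call under any of them. SLC30A4 turned to 0.18 under normexp, and leaving out a flask gave values from -0.98 to 0.43. SLC30A7 turned to 0.011 under quantile, 0.079 under scale and 0.031 under median normalization, and ranged from -0.17 to 0.15 without a flask. SLC39A1 ranged from -0.26 to 0.62 in the same way. The probes of the 10 genes called changed numbered 0 under every alternative that kept all flasks, and 0 to 1 with a flask left out, the 1 being SLC30A1 A_23_P23815 without the second naïve flask. Over the whole array the 1487 calls became 0 under normexp (929 at an unadjusted p below 0.05), 0 with the methods' t-test (4138 at an unadjusted p below 0.05), 760 among probes above background on all arrays, and 728 to 4536 with a flask left out (4536 without the second naïve flask, 3733 without the first, 743 and 728 without either resistant flask). The cause was not tested, except that the third filter has fewer probes. With a flask left out, the lone flask of a line is assumed to vary like the others. With a fit by replicate block, 1375 probes and 0 of the 10 genes were called. The labels do not tie same-numbered flasks together. Their deviations correlated at 0.119 across probes over 2 pairs. With 2 flasks per line this value cannot decide whether such flasks shared more than a number. Normexp raised the median of all probes by 0.15 and scale normalization by 0.10. Relative to all probes, the median of the zinc genes was -0.17 in the fit reported, -0.05 under normexp and -0.19 under scale normalization. With a flask left out it was -0.12 and -0.45 without the first and second naïve flask, and -0.26 and -0.16 without the first and second resistant flask. The slide could not serve as a block, since 1 slide held all arrays. Position on the slide cannot be told apart from line, dim probes of SLC30A4, MTF1 and SLC39A14 sit near background, and 1 resistant clone stands for resistance.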
